A study of Mus musculus with 4 samples.

Results

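The core circadian clock was examined as 10 genes chosen by name (Arntl, Npas2, Clock, Per1, Per2, Per3, Cry1, Nr1d1, Nr1d2 and Dbp), each of which had 1 row among the 21899 rows of a table of protein-coding genes. RNA sequencing had been done on subcutaneous white adipose tissue of mice (Mus musculus) given an inhibitor of miR-203 or a negative control. There were 2 inhibitor libraries and 2 control libraries, and each library held the RNA of 3 animals pooled together, so the spread between libraries is a spread between pools. The strain, sex and age of the animals, the dose, route and length of treatment and the hour of tissue collection were not stated in the sources used here. The level of miR-203 was not analysed here. By its title the series concerns a network of cyclic AMP, miR-203 and interferon gamma that acts on fat browning. Since nothing in the labels says that the pools came from separate experiments, p-values measure only the spread between these 4 libraries.

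The clock is a feedback loop of transcription that runs in nearly every cell, fat cells included. ARNTL (also called BMAL1) pairs with CLOCK or with its relative NPAS2, and the pair switches on genes that carry E-boxes, among them the Per and Cry genes, Nr1d1, Nr1d2 and Dbp. PER and CRY proteins then block the pair, while NR1D1 and NR1D2 (REV-ERB alpha and beta) repress Arntl and Npas2 through ROR elements, where ROR receptors activate. DBP, with TEF and HLF, acts on genes with D-boxes, which NFIL3 represses. Messages of the activators Arntl and Npas2 and those of Dbp and Nr1d1 peak at opposite times of day, so the level of each depends on the hour of sampling.

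The sequences through which this loop is wired are shown first. RefSeq start windows on GRCm38.p6, from 250 bases before to 50 bases after a transcript start, were found for 9 of the 10 genes and made 13 windows, and Per2 had no entry. They were searched on both strands for the E-box CACGTG, the D-box TTATGTAA and the ROR element spelled GTAGGTNA, which do not overlap each other in these windows. The E-box was found in 2 genes, Per1 and Cry1, or 2 of the 13 windows, and in 7.15% of all 32851 windows of the mouse genome. The D-box was found in 1 gene, Per3, in its only window, and in 0.938% of all windows. The ROR element was found in 1 gene, Arntl, in both of its windows, and in 2.14% of all windows. Its spelling was chosen with the Arntl sites in view, so the match in Arntl was fixed in advance. The 4 windows below hold all the matched sites (1 of those in Arntl also lies in its other window), with the matched letters in capitals, and a window without a match says only that these spellings are not in it.

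Arntl, chr7:113207261-113207560, plus strand: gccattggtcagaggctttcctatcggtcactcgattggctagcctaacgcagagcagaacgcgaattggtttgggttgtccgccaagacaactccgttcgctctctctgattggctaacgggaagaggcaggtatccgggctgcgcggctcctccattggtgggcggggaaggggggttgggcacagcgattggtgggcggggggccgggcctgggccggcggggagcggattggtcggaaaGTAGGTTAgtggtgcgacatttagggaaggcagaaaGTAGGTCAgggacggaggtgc
Per3, chr4:151044616-151044915, minus strand: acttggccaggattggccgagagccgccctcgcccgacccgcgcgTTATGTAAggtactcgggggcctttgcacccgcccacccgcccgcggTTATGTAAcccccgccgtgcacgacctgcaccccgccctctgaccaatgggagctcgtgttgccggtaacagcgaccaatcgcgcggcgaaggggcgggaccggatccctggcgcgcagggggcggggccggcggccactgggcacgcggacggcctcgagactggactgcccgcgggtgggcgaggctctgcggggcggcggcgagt
Cry1, chr10:85185005-85185304, minus strand: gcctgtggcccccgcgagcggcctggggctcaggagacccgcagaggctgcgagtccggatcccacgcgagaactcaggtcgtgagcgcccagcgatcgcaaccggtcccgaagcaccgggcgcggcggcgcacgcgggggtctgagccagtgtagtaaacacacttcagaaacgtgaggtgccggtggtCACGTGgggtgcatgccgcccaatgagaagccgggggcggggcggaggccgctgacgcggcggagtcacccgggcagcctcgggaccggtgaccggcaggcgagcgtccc
Per1, chr11:69098699-69098998, plus strand: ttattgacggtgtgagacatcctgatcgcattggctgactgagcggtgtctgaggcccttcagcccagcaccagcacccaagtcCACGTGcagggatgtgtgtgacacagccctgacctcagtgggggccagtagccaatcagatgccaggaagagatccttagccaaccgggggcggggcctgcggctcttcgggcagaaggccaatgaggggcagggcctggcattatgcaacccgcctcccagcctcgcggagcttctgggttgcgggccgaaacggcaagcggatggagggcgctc

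The Arntl window shown holds a pair of ROR elements, which begin 7 bases before and 29 bases after the start base. In the Per3 window 2 copies of the D-box begin 205 and 158 bases before the start. The E-box begins 60 bases before the start of Cry1 and 166 bases before that of Per1.

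**Figure D1:**
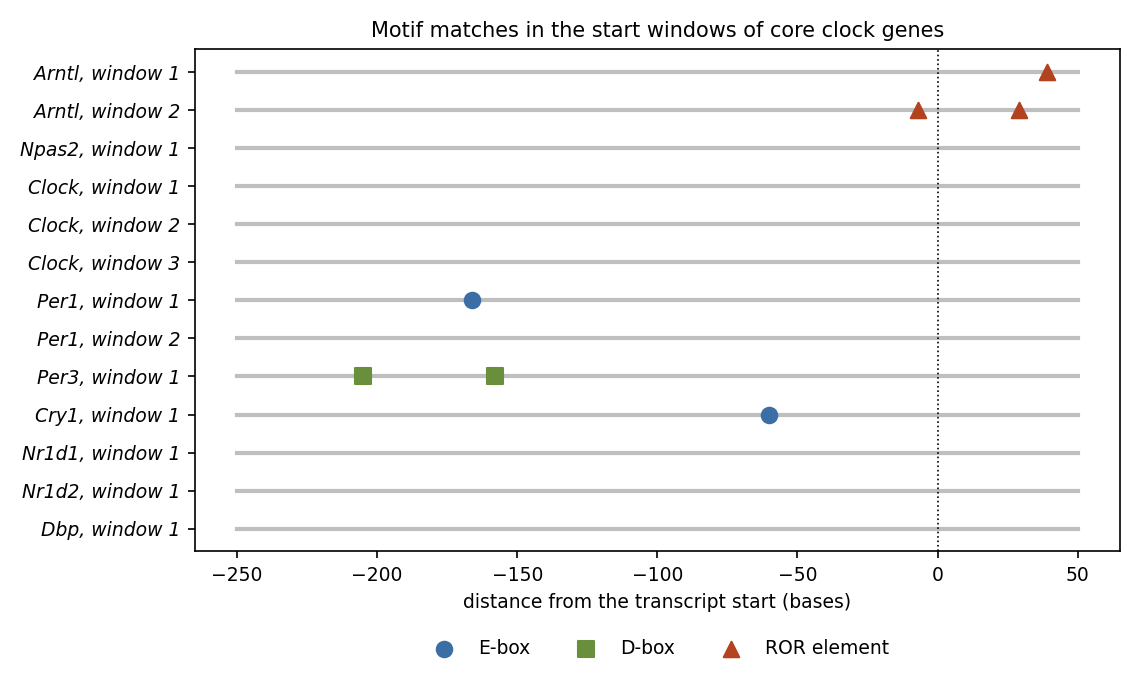
Positions of motif matches in the 13 start windows of 9 core clock genes. Each grey line is 1 window, the horizontal axis gives the distance in bases from the transcript start (dotted line) to the first base of a match, and the marker shape gives the motif. Matches lie in Arntl (ROR element), Per1 and Cry1 (E-box) and Per3 (D-box), and the windows of Npas2, Clock, Nr1d1, Nr1d2 and Dbp hold none.

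The agent of the experiment was compared with the same genes. A microRNA pairs through its seed, bases 2 to 8, with short matching sites, many of them in 3' untranslated regions. The labels do not say which arm of miR-203 the inhibitor blocks. The 3' arm, which is the one usually meant by the name, lies at chr12:112130927-112130948 on the plus strand of GRCm38.p6 and is shown with its seed in capitals, followed by every match to that seed in the longest annotated 3' untranslated region of a clock gene, with the 7 matching letters in capitals.

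mmu-miR-203-3p: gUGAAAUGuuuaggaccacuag
Arntl: tatatgcaaaatggtCATTTCAg
Npas2: ggcgcaccctgtataCATTTCAg
Clock, first match: tcacaggtatgagtgCATTTCAt
Clock, second match: gaaatgttggcatgtCATTTCAg
Cry1: catggaaaacagttaCATTTCAa

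Thus 4 of the 10 genes carried 5 matches, against 17.6% of the 12194 genes tested that had an annotated 3' untranslated region. Length differed widely between these regions, at 6831 bases in Clock, 1229 in Npas2, 612 in Cry1 and 507 in Arntl, and at 288 (Nr1d1) to 2631 bases (Nr1d2) in the 6 genes without a match. A match of letters is a description and does not show that the microRNA acts there. The median log2 fold change, inhibitor over control, was 0.33 for the 4 clock genes with a match (range -0.07 to 0.93) and -0.08 for the 6 without (range -0.24 to 0.07). Over all genes tested it was 0.07 for the 2146 with a match and 0.06 for the 10048 without, values that were nearly equal. Over all these genes the median region length was about 2695 bases with a match and 1111 without. The highest value, 0.93, is that of Npas2, which reached the filter for testing only through its inhibitor values. The contrast within the clock genes rests on few genes and partly on that one, and any part of miR-203 in it was not tested.

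Levels were compared between the clock genes in FPKM, fragment counts scaled for transcript length and library depth. The highest level was that of Nr1d1, at 79.1 to 99.8 FPKM over the 4 libraries, followed by Dbp at 58.4 to 74.7 FPKM, and these ranges did not overlap. Per1 (20.8 to 23.6 FPKM) and Nr1d2 (17.2 to 21.1 FPKM) overlapped each other and lay above Per3 (11.2 to 14.4 FPKM). Clock, Per2 and Cry1 could not be ordered, since their ranges overlapped, with all values between 4.12 and 5.88 FPKM. Arntl reached from 2.68 to 5.02 FPKM and overlapped Cry1, and Npas2 was lowest at 0.467 to 2.22 FPKM. The order of the group means was the same in inhibitor and control tissue apart from Clock, Per2 and Cry1. All the clock genes passed the filter for testing, a mean of at least 1 FPKM, but the control libraries alone would not have brought Npas2 above it.

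The main comparison asked whether clock genes differed between inhibitor and control tissue. Of the 10 genes 0 passed limma's test with an adjusted p under 0.05, against 3.48% of the 12345 genes tested (3.22% higher and 0.267% lower). At an unadjusted p under 0.05 there were 2 of the 10, Npas2 and Arntl, both with positive fold changes. Their share was close to that of all genes tested, 2384 of 12345, and Npas2 was tested only because of its inhibitor values. The median log2 fold change of the 10 genes was -0.02, beside 0.07 for all genes tested, with 5 positive and 5 negative values. It rested on single libraries, at 0.12 without inhibitor 1, -0.11 without inhibitor 2, -0.040 without control 1 and 0.021 without control 2, and under quantile normalization it was -0.13, beside -0.033 for all genes tested. Inhibitor and control values did not overlap in 3 of the 10 genes (Npas2, Arntl and Per3), against 52.2% of all genes tested. With 2 libraries a group, in simulated tables of 12345 genes 28.8% of the genes with a log2 change of 1 were recovered. The share was 72.2% at a change of 2, and 3.4% at the smallest change simulated, which was below 1. The fitted log2 fold changes of the 10 clock genes ran from -0.24 to 0.93. For changes of such sizes 0 of 10 past the test therefore says little. In bulk tissue fewer cells of a type and less RNA per cell cannot be told apart.

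**Figure D2:**
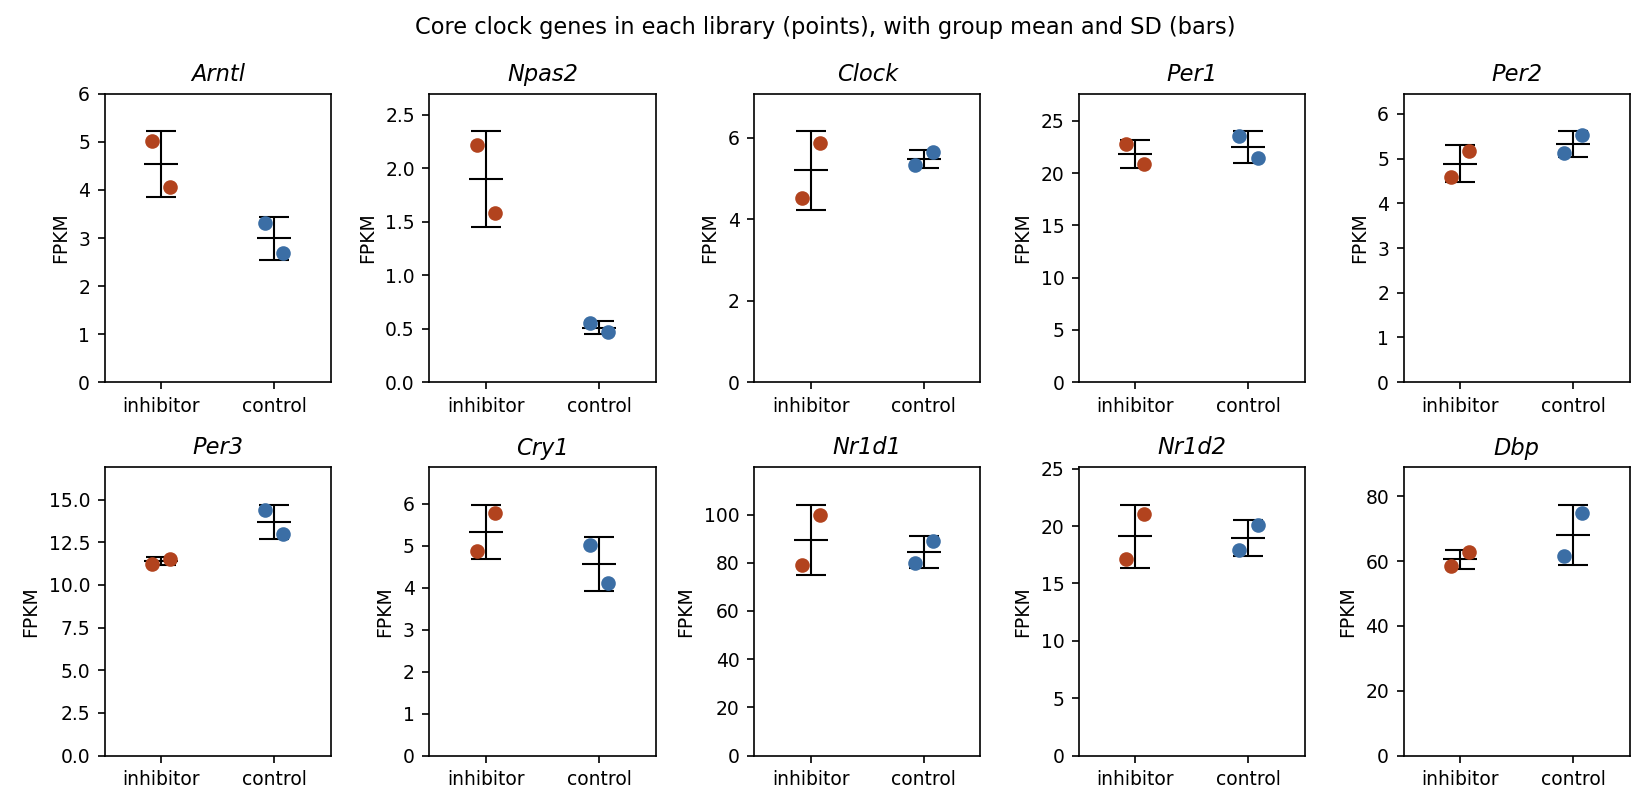
FPKM of the 10 core clock genes in each library, with inhibitor at the left and control at the right of each panel. Points are libraries 1 and 2 of a group from left to right, the long dash is the group mean and the bar is 1 SD (n = 2). Npas2, Arntl and Per3 are the genes whose groups do not overlap, and the other 7 do overlap.

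Npas2, which stands in for CLOCK as the partner of ARNTL, showed the largest difference among the clock genes. Npas2 (chromosome 1, 39193731 to 39363236, plus strand of GRCm38, ENSMUSG00000026077) had 2.22 and 1.58 FPKM in the inhibitor libraries, against 0.552 and 0.467 FPKM in the control libraries. Both inhibitor values lay well above both control values, and the ratio of the group means was 3.73. On the log2(FPKM + 1) scale, which understates the change of low genes, the log2 fold change was 0.93 ± 0.22 (SE, 95% interval 0.38 to 1.48). The unadjusted p was 0.00682 and limma's adjusted p was 0.102, so the gene did not pass. Npas2 reached the filter only through its inhibitor values, so its interval and p describe a gene chosen partly by the difference itself. Without the filter limma's adjusted p was 0.113. With a pseudocount of 0.1 the log2 fold change was 1.70 ± 0.40 (adjusted p = 0.111). A pair of processed pseudogenes, Gm20428 and Gm3617, lies within the span of Npas2, and how the authors' counting treated them was not analysed here.

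Arntl, the obligatory activator, pointed the same way with a smaller difference. Arntl (chromosome 7, 113207465 to 113314126, plus strand, ENSMUSG00000055116) had 5.02 and 4.05 FPKM in the inhibitor libraries, against 3.31 and 2.68 FPKM in the control libraries. The groups were separate, and the gap between the lower inhibitor library and the higher control library was about as wide as the spread within each group. The means were 4.54 ± 0.69 and 3.00 ± 0.45 FPKM (SD, n = 2 each), and the log2 fold change was 0.47 ± 0.18 (95% interval 0.01 to 0.93, limma adjusted p = 0.254). Over the alternative settings tried, the log2 fold change stayed between 0.34 and 0.60 and the adjusted p between 0.195 and 0.580. Gm45355, an antisense gene, overlaps Arntl over 2394 bases.

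Clock, the usual partner of ARNTL and a histone acetyltransferase, overlapped between the groups. Clock (chromosome 5, 76209868 to 76304792, minus strand, ENSMUSG00000029238) had 4.51 and 5.88 FPKM in the inhibitor libraries, against 5.32 and 5.64 FPKM in the control libraries. The inhibitor libraries enclosed both controls, and the log2 fold change was -0.07 ± 0.17 (95% interval -0.50 to 0.36, limma adjusted p = 0.850). Clock holds a pseudogene, Ube2n-ps1, and overlaps another annotated gene, Gm43658, over 4176 bases, both on its own strand.

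Of the repressors, the Period genes had fitted log2 fold changes of -0.24 to -0.04 and Cry1 one of 0.18, with 0 of 4 past the test. Per3 (chromosome 4, 151003652 to 151044665, minus strand, ENSMUSG00000028957), which carries the pair of D-boxes shown above, had 11.2 and 11.5 FPKM in the inhibitor libraries, against 14.4 and 13.0 FPKM in the control libraries. It was the only clock gene with both inhibitor values below both control values, and the log2 fold change was -0.24 ± 0.12 (95% interval -0.54 to 0.06, limma adjusted p = 0.340). The whole of Per3, 41014 bases, lies inside Camta1 on the same strand, which had 5.94 and 5.94 FPKM in the inhibitor libraries and 3.66 and 3.85 FPKM in the control libraries, so the division of reads between them is uncertain.

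Per1, which is also an immediate target of cyclic AMP and glucocorticoid signals, was nearly level between the groups. Per1 (chromosome 11, 69095217 to 69109960, plus strand, ENSMUSG00000020893) had 22.7 and 20.8 FPKM in the inhibitor libraries, against 23.6 and 21.4 FPKM in the control libraries, with a log2 fold change of -0.04 ± 0.11. Its 95% interval, -0.32 to 0.24, was the narrowest among the clock genes. Per2 (chromosome 1, 91415982 to 91459324, minus strand, ENSMUSG00000055866), a Period protein whose loss disturbs daily rhythms in mice, had 4.59 and 5.18 FPKM in the inhibitor libraries, against 5.13 and 5.53 FPKM in the control libraries. The groups overlapped narrowly, with a log2 fold change of -0.11 ± 0.15 (95% interval -0.48 to 0.27).

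Cry1, the cryptochrome that is a strong repressor of the activator pair, had 4.87 and 5.79 FPKM in the inhibitor libraries, against 5.02 and 4.12 FPKM in the control libraries. It lies on chromosome 10 at 85131700 to 85185064, minus strand (ENSMUSG00000020038). Inhibitor 1 lay between the controls and inhibitor 2 above both, and the log2 fold change was 0.18 ± 0.17 (95% interval -0.25 to 0.62, limma adjusted p = 0.605). It was 0.29 without inhibitor 1, 0.080 without inhibitor 2, 0.30 without control 1 and 0.068 without control 2.

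The REV-ERB genes, whose proteins repress Arntl and Npas2, overlapped between the groups. Nr1d1 (chromosome 11, 98767932 to 98775333, minus strand, ENSMUSG00000020889) had 79.1 and 99.8 FPKM in the inhibitor libraries, against 79.8 and 89.1 FPKM in the control libraries. The lowest and the highest library were both inhibitor libraries, and the log2 fold change was 0.07 ± 0.14 (95% interval -0.27 to 0.42), with a sign that turned under upper quartile scaling. Nr1d1 overlaps Thra, a thyroid hormone receptor gene, over 1075 bases on the opposite strand, and whether the authors' assignment of fragments used the strand was not stated in the sources used here.

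Nr1d2 (chromosome 14, 18204054 to 18239127, minus strand, ENSMUSG00000021775), the second REV-ERB gene, had 17.2 and 21.1 FPKM in the inhibitor libraries, against 17.9 and 20.1 FPKM in the control libraries. The group means were 19.1 and 19.0 FPKM, and the log2 fold change was 0.0043 ± 0.14 (95% interval -0.35 to 0.36), with a negative sign under quantile normalization and upper quartile scaling. A p that misses the threshold does not show that values were equal; for Nr1d1 and Nr1d2 the intervals still allow a change in either direction.

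Dbp, the output factor of the D-box and the second most abundant of the clock messages, had 58.4 and 62.7 FPKM in the inhibitor libraries, against 61.6 and 74.7 FPKM in the control libraries. Dbp (chromosome 7, 45705088 to 45710203, plus strand, ENSMUSG00000059824) overlaps the oppositely oriented Sphk2 over 737 bases. Control 2 lay above the other 3 libraries, which were close together. The log2 fold change was -0.16 ± 0.12 (95% interval -0.47 to 0.14, limma adjusted p = 0.517), and it was -0.30 without control 1 and -0.025 without control 2.

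**Figure D3:**
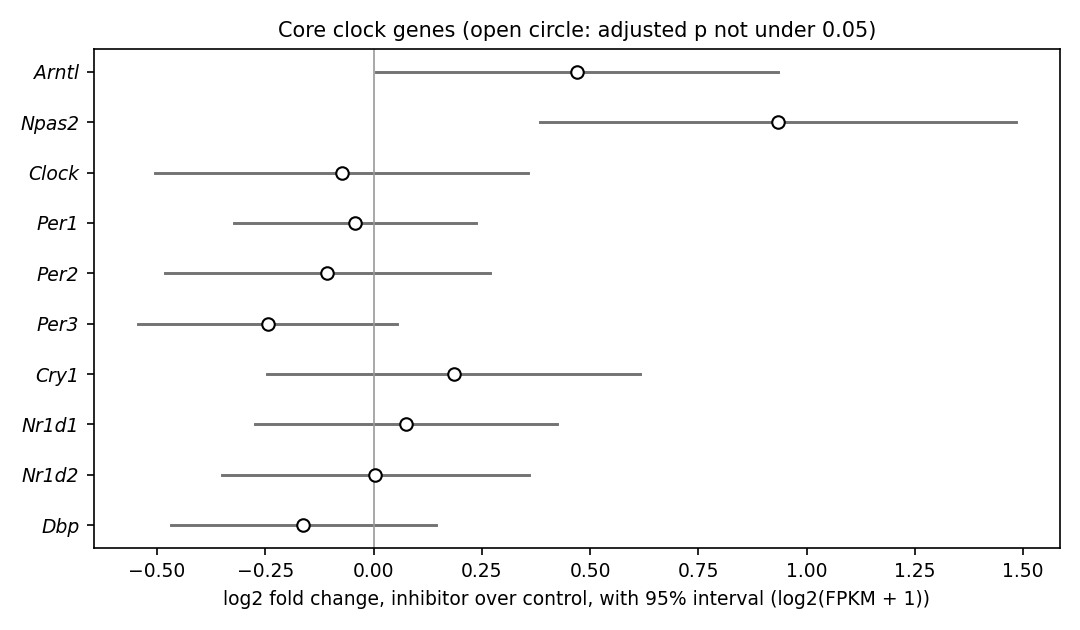
Log2 fold change of each core clock gene, inhibitor over control, on the log2(FPKM + 1) scale. Circles are limma estimates, lines are 95% intervals, and all circles are open because no adjusted p was under 0.05. The intervals of Npas2 (0.38 to 1.48) and Arntl (0.01 to 0.93) lie above 0, and those of the other 8 genes include 0. Npas2 reached the filter for testing only through its inhibitor values.

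The libraries also differed within groups. In 8 of the 10 clock genes library 2 differed from library 1 in the same direction in the inhibitor and the control group, against 50.2% of all genes tested. Clock, Per2, Nr1d1, Nr1d2 and Dbp were the 5 that were higher in library 2 of both groups, and Arntl, Npas2 and Per1 were the 3 that were lower. For Nr1d1 library 2 exceeded library 1 by 0.33 in the inhibitor group and by 0.16 in the control group on the log2 scale, and for Arntl library 2 minus library 1 was -0.25 and -0.23. Per3 and Cry1 were the exceptions. Of the 30 further clock genes tested, which are described below, 18 (60%) had library 2 on the same side of library 1 in both groups. No label says what, if anything, same-numbered libraries share, and the 10 genes are parts of one loop and not independent of each other.

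The tissue label was checked against markers. Adipoq, the fat cell hormone adiponectin, had 1094.5 and 996.6 FPKM in the inhibitor libraries, against 1255.5 and 1303.0 FPKM in the control libraries, and the 6 epithelial and mammary markers summed to at most 1.70 FPKM, with Csn3 and Krt8 at 0 throughout. The summed levels of several marker lists did not overlap between the groups. The summed level of the 7 adipocyte markers was 13835 and 12866 FPKM in the inhibitor libraries, against 16698 and 16996 FPKM in the control libraries, with 0 of 7 past the test. Most of that sum was Fabp4, with 10361.5 and 9639.7 FPKM in the inhibitor libraries, against 12522.3 and 12715.3 FPKM in the control libraries. Pparg alone among the 7 had a positive log2 fold change, 0.05, and its groups overlapped. The summed level of the 4 beige fat markers was 643.3 and 570.4 FPKM in the inhibitor libraries, against 1390.7 and 1239.9 FPKM in the control libraries, with Ucp1, Elovl3 and Cidea lower past the test. The 6 T and NK cell markers summed to 72.6 and 96.4 FPKM in the inhibitor libraries, against 49.9 and 21.5 FPKM in the control libraries, with Gzmb higher past the test. Gzmb, a cytotoxic granule protease, had 35.7 and 43.7 FPKM in the inhibitor libraries, against 6.73 and 7.89 FPKM in the control libraries, while Cd3e, Cd3d, Cd8a and Cd4 overlapped between the groups. The 3 erythroid markers summed to 605.5 and 670.5 FPKM in the inhibitor libraries, against 855.4 and 951.3 FPKM in the control libraries, with Hba-a1 lower past the test (limma adjusted p = 0.0349). The 4 endothelial markers summed to 174.8 and 167.9 FPKM in the inhibitor libraries, against 197.2 and 180.5 FPKM in the control libraries, with 0 of 4 past the test. The sums of the 6 macrophage markers overlapped between the groups, with Cd68 higher and Cd163 lower past the test. The 8 B cell and lymph node markers summed to 161.2 and 186.4 FPKM in the inhibitor libraries. In the control libraries they summed to 374.4 and 3.86 FPKM, so the controls differed widely from each other. The part of all these differences in the values of Npas2 and Arntl was not tested.

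The wider clock was described with 32 further genes, of which 30 reached the filter and Fbxl21 and Rorb did not. Timeless was the 1 gene that passed limma's test, and it was higher, so that 1 of 30 rose and 0 fell, near the 3.48% of all genes tested. Timeless, whose protein acts mainly at replication forks in mammals although its fly relative is a clock component, had 14.8 and 11.5 FPKM in the inhibitor libraries, against 5.51 and 5.57 FPKM in the control libraries. The inhibitor libraries stood well above the controls, with a log2 fold change of 1.10 ± 0.16 (limma, adjusted p = 0.0309). Limma's adjusted p was over the threshold without the filter (0.0897) and without the variance trend (0.0529). With 1 library left out the log2 fold change lay between 0.93 (without inhibitor 1) and 1.27 (without inhibitor 2). Tipin, the replication partner of TIMELESS, had 12.0 and 10.9 FPKM in the inhibitor libraries, against 8.06 and 8.23 FPKM in the control libraries (adjusted p = 0.143).

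The D-box factors lay on either side. Nfil3, the repressor at D-boxes, had 8.78 and 10.8 FPKM in the inhibitor libraries, against 4.23 and 5.31 FPKM in the control libraries, a log2 fold change of 0.90 ± 0.17 that did not pass (adjusted p = 0.0672). Tef, an activator at D-boxes and a relative of Dbp, had 43.9 and 41.3 FPKM in the inhibitor libraries, against 55.8 and 53.8 FPKM in the control libraries (log2 fold change -0.36 ± 0.09, adjusted p = 0.117). Hlf, the other relative, had 6.04 and 5.02 FPKM in the inhibitor libraries, against 7.93 and 7.63 FPKM in the control libraries (adjusted p = 0.208). In each of Nfil3, Tef and Hlf the groups were separate, as in 22 of the 30 genes, against 52.2% of all genes tested.

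Among other genes near the loop, Ciart, a repressor of the activator pair, had 4.64 and 5.09 FPKM in the inhibitor libraries, against 6.10 and 7.52 FPKM in the control libraries (adjusted p = 0.257). Nampt, an enzyme of NAD synthesis that the clock controls, had 40.9 and 46.2 FPKM in the inhibitor libraries, against 30.7 and 34.0 FPKM in the control libraries (adjusted p = 0.130). The median log2 fold change of the 30 genes was 0.09, near the 0.07 of all genes tested, and it was -0.015 under quantile normalization and -0.0099 under upper quartile scaling. Under these scalings the median of all genes tested also fell, to -0.033 and -0.029. An unadjusted p under 0.05 was found for 8 of the 30 genes, of which 4 were positive and 4 negative, against 2384 of the 12345 genes tested, of which 1650 were positive and 734 negative.

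**Figure D4:**
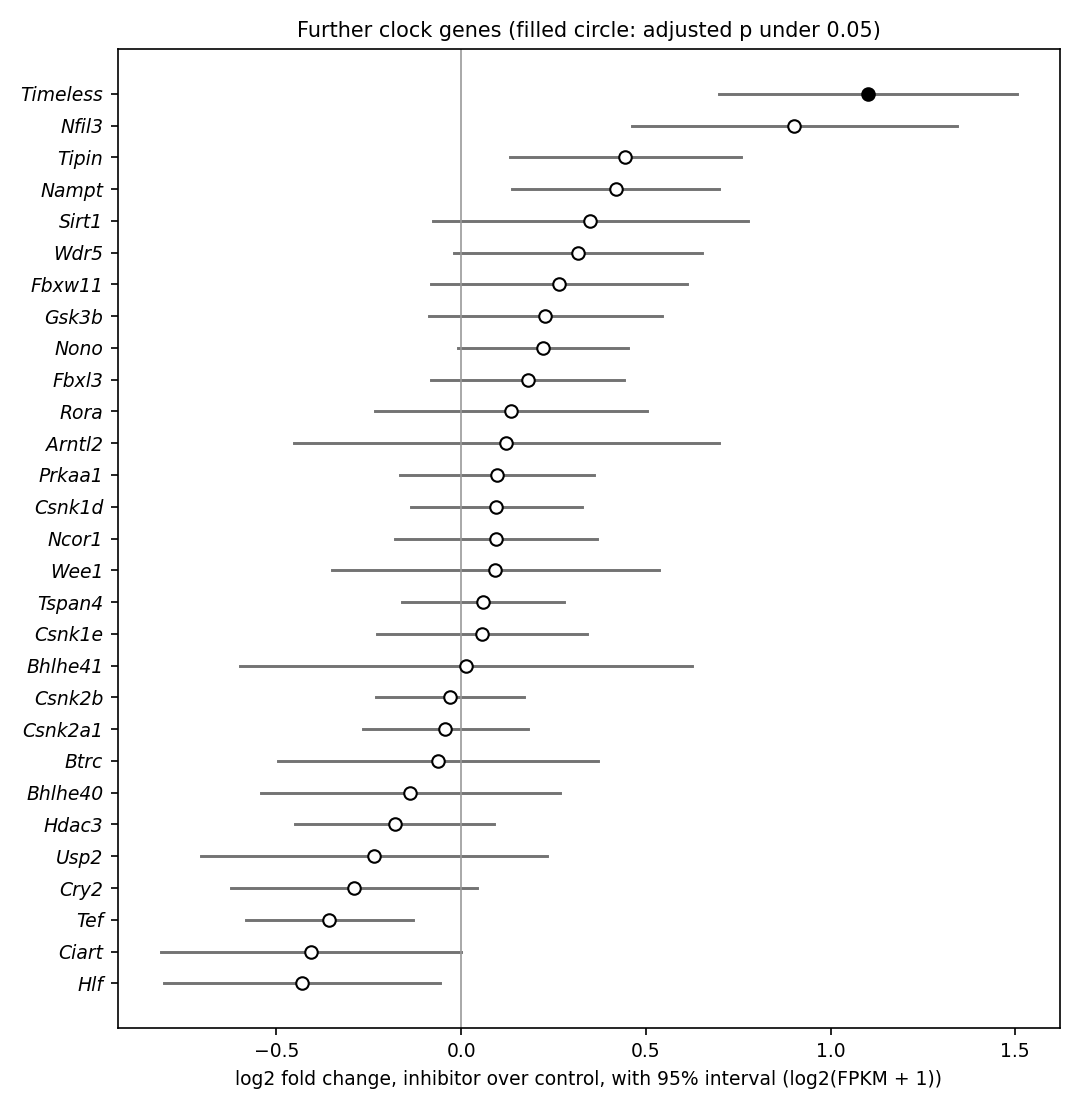
Log2 fold change, inhibitor over control, of 29 of the 30 further clock genes that reached the filter, on the log2(FPKM + 1) scale and ordered by size. Circles are limma estimates, lines are 95% intervals, and a filled circle marks an adjusted p under 0.05. Timeless, at 1.10, is the filled circle, and Hlf, at -0.43, is the lowest.

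Genes that answer glucocorticoids and acute stress were set beside Per1, which shares that control. Of 24 such genes 22 were tested, Per1 among them, and 2 rose and 0 fell, against 3.22% and 0.267% of all genes tested, with a median log2 fold change of 0.16. That median was 0.10 without inhibitor 1, 0.25 without control 1 and 0.034 without control 2, and 0.066 under quantile normalization and 0.056 under upper quartile scaling. For all genes tested the median was 0.07 in the values reported, and -0.033 and -0.029 under these scalings. Cdkn1a, an inhibitor of the cell cycle, had 78.8 and 74.8 FPKM in the inhibitor libraries, against 36.6 and 36.4 FPKM in the control libraries (log2 fold change 1.05 ± 0.09, limma adjusted p = 0.00906). Junb, an immediate early factor, had 55.5 and 60.1 FPKM in the inhibitor libraries, against 34.4 and 28.1 FPKM in the control libraries (log2 fold change 0.87 ± 0.13, limma adjusted p = 0.0313). With 1 library left out the log2 fold change was 1.01 to 1.09 for Cdkn1a and 0.73 to 1.01 for Junb. Junb did not pass limma's test without the filter (adjusted p = 0.0848) or the variance trend (adjusted p = 0.0778). Cdkn1a and Junb are both induced by many stimuli besides glucocorticoids.

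Fos, another immediate early factor, had 27.8 and 31.6 FPKM in the inhibitor libraries, against 17.9 and 12.4 FPKM in the control libraries (adjusted p = 0.0711). Fkbp5, a chaperone partner of that receptor, had 21.6 and 29.1 FPKM in the inhibitor libraries, against 17.9 and 21.7 FPKM in the control libraries (adjusted p = 0.384), and Tsc22d3, which encodes GILZ, had 95.2 and 77.4 FPKM in the inhibitor libraries, against 77.2 and 70.1 FPKM in the control libraries (adjusted p = 0.412). Log2 fold changes were -0.21 for Klf9, -0.24 for the metallothionein Mt1 and 0.15 for Nr3c1, the receptor itself, none past the threshold. Of the 22 genes 16 had library 2 on the same side of library 1 in both groups, among them 11 that were lower in library 2, against 50.2% of all genes tested.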

How the data were processed

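RNA was measured in 4 libraries of subcutaneous white adipose tissue. Per the submitters' processing notes TopHat, TopHat2 2.0.11 and Cufflinks 2.1.1 were used with build mm10; settings and annotation were not stated in the sources used here. Values are FPKM per gene as the authors deposited them. These are not counts, so absolute depth is unknown. The most common ratio of values under 0.3 FPKM put the depth of the other libraries at 0.905 to 1.06 of control 1.

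Values were analysed as log2(FPKM + 1) for the 12345 rows that averaged 1 FPKM or more. Inhibitor and control were compared across all genes with limma 3.58.1 in R 4.3.3 (lmFit, eBayes with a trend, two-sided, Benjamini-Hochberg adjustment over all genes tested, threshold 0.05), with 2 residual and 5.29 total degrees of freedom. The pipeline was tested on 10 simulated tables. Alternatives were another pseudocount, no filter or a stricter one, 2 scalings, no trend, a replicate block and leaving out each library. Coordinates and 3' untranslated regions come from GENCODE M21 (GRCm38), and identifiers matched for all 10 genes. Start windows and the microRNA come from RefSeq.

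The clock genes and gene lists were chosen with earlier results of these data known, and the ROR element spelling was chosen with the Arntl sites in view. All 10 clock genes are named, with up to 8 genes of each other list by smallest p and any past the threshold, and the 3 genes most like Arntl and Dbp. Genes overlapping a clock gene and cell markers are named besides, and 1 further clock gene that the rule picked is not reported here.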

Additional observations from a re-analysis of the deposited data

How the results depend on the processing

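The count of clock genes past the threshold was 0 of 10 under 10 alternatives, the replicate block among them, and 0 of 7 at a mean of at least 5 FPKM, where Arntl, Npas2 and Cry1 were not tested. Without inhibitor 1 or inhibitor 2 it says nothing of stability, since 0 of all genes passed. Of the other counts, without the filter 132 of all genes, 0 further clock genes and 1 stress responsive gene passed, and without the trend 226, 0 and 1. Leaving out 1 library gave 0 to 785 for all genes, 0 to 1 for further clock genes and 0 to 3 for stress responsive genes. The 0 of all genes came without inhibitor 1 and without inhibitor 2. There limma gave 1693 and 1281 genes an unadjusted p under 0.05, and the lone library was assumed to vary like the controls. Quantile normalization gave 326 higher and 92 lower, against 397 higher and 33 lower in the values reported. With the replicate block 354 of all genes passed. Deviations of same-numbered libraries had a correlation of -0.0058 across all genes tested, and libraries were not paired by number in the values reported. A correlation over all genes does not speak for the clock genes, of which 8 of 10 deviated in the same direction in both groups.

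Signs turned only in 4 clock genes that lay near 0. With 1 library left out the log2 fold change ranged from -0.23 to 0.086 for Clock, -0.11 to 0.022 for Per1, -0.091 to 0.24 for Nr1d1 and -0.14 to 0.14 for Nr1d2. The sign held but the size moved for Per2 (-0.18 to -0.035), Cry1 (0.068 to 0.30) and Dbp (-0.30 to -0.025). Nr1d1 had -0.031 under upper quartile scaling, and Nr1d2 had -0.10 there and -0.11 with quantile normalization. The causes were not tested. Npas2 came nearest to the threshold without the trend (limma adjusted p = 0.0728). Without inhibitor 1 its log2 fold change was 0.77. Absolute depth is unknown, which limits what can be said of Npas2 at 0.467 FPKM.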

Other observations

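Among the 12335 other genes tested, those with the profile over the 4 libraries most like that of Arntl were Dennd4b, Hpx and Lyar, at distances of 0.026 to 0.037 between centred log2(FPKM + 1) values. Dennd4b had 15.4 and 12.7 FPKM in the inhibitor libraries, against 10.5 and 8.82 FPKM in the control libraries. Those most like Dbp were Tcaf2, Osbpl1a and Galt, at distances of 0.022 to 0.031. Galt, an enzyme of galactose use, had 20.0 and 21.7 FPKM in the inhibitor libraries, against 21.8 and 26.3 FPKM in the control libraries. None of these 6 genes passed limma's adjusted threshold between the groups, which follows largely from the choice, since neither Arntl nor Dbp passed. A likeness over 4 libraries, picked from 12335 genes, does not show shared control.

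Of the genes that overlap a clock gene, Thra had 33.5 and 34.8 FPKM in the inhibitor libraries, against 39.1 and 41.6 FPKM in the control libraries, while the groups overlapped for Nr1d1. Sphk2 had 17.3 and 17.4 FPKM in the inhibitor libraries, against 17.7 and 18.5 FPKM in the control libraries.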
